A study of Mus musculus with 23 samples.

Results

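The 10 transcription factors described here are PAX5, EBF1, BACH2, BCL6, SPIB, IRF8, ETS1, POU2F2, POU2AF1 and MEF2C. They were chosen by name as regulators of the B cell lineage, and each was found as exactly 1 expression profile among the 15881 distinct profiles of the deposited table. All 10 passed the filter on low counts. The table gives mouse genes under human symbols, and those symbols are kept.

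RNA-seq was made from total RNA of 23 mouse libraries, all from cells enriched for B cells by magnetic beads that remove other cell types. Quiescent cells were untreated splenic B cells of wild-type (WT) Balb/c mice (4 libraries). Activated cells were WT splenic B cells held with lipopolysaccharide (LPS) at 1 µg/ml for 16 hours (5 libraries). Tumors came from untreated IL6Myc transgenic mice and are labelled malignant plasma cells, with 7 from the mesenteric lymph node (MLN, mice 1609 to 1611 and 1613 to 1616) and 7 from the spleen (mice 1610 to 1616). Equal mouse numbers mark tumors of 1 animal, so that the 14 tumor libraries stand for 8 mice, 6 of them with both tumors. The sources used here do not give the promoters that drive the transgenes, the ages of the mice or whether each control library is a separate animal, so that p-values on the controls measure the spread between libraries. Totals ran from 13328866 to 25045814 a library, in values treated as estimated counts, and each member had a level far above the filter of 1 CPM (the counts of a gene scaled to a common library total) in the controls.

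In B cell development EBF1 and PAX5 commit progenitors to the lineage, and PAX5 holds that identity in mature cells by activating B cell genes and silencing others. When a B cell becomes an antibody-secreting plasma cell, PRDM1 (Blimp-1) and XBP1 rise, and PRDM1 represses PAX5, BCL6 and other factors of the B cell program. BACH2 and BCL6 in turn repress PRDM1, while POU2AF1, a coactivator that binds the octamer factors POU2F1 and POU2F2, is kept in plasma cells.

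The label was compared with these 2 plasma cell regulators. PRDM1 was 7.74 to 11.6 CPM in quiescent cells and 5.36 to 203 CPM in tumors, and it was at or below the highest quiescent library in 1 of 14 tumor libraries. XBP1 was 169 to 194 CPM in quiescent cells and 139.8 to 4432 CPM in tumors, and it was at or below the highest quiescent library in 2 of 14. The spleen tumor of mouse 1610 was in both counts, so that in this library neither regulator stood above the level of a resting B cell. Activated cells had more of both, with PRDM1 at 16.2 to 21.2 CPM and XBP1 at 503 to 521 CPM. Neither regulator exceeded these ranges in mice 1610, 1612 and 1615 (spleen) or 1611 (MLN). In mouse 1609 (MLN) PRDM1 was above its activated range, at 25.6 CPM, and XBP1 below, at 452 CPM. All remaining tumor libraries were above both ranges.

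PAX5 had the largest SD of log2 CPM among tumor libraries of the 10 members, with SPIB next to it. In quiescent cells PAX5 measured 1429, 1577, 1517 and 1519.7 CPM, and in activated cells 1494, 1494, 1514, 1581 and 1586 CPM. In MLN tumors the lowest, median and highest values were 93.3, 581 and 886 CPM, and in spleen tumors 6.39, 763 and 1049.9 CPM. All 14 tumor libraries lay below every control library. The spleen tumor of mouse 1611, with the lowest level, was 236-fold below the quiescent mean, while the spleen tumor of mouse 1610, with the highest, was 1.44-fold below it.

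POU2AF1 was the member with the smallest fall in its lowest tumor library. It measured 886, 899, 997 and 965 CPM in quiescent cells and 1069, 1029.5, 952, 1054 and 1038 CPM in activated cells. MLN tumors had a lowest, median and highest value of 759.6, 1318 and 2135 CPM, and spleen tumors of 434, 984 and 2519.8 CPM. Tumors fell on both sides of the controls: 5 of 14 libraries lay below the lowest quiescent library and 8 above the highest. The lowest, the spleen tumor of mouse 1614, was 2.16-fold below the quiescent mean.

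The 250 bases before the start of these 2 genes are shown because PAX5 fell below the controls in every tumor library and POU2AF1 did not. The sequences are from RefSeq (build GRCm38.p6, another build than the GRCm39 of the submitters' processing notes) and are printed on the gene's strand, 5′ to 3′, PAX5 from chr4:44710695-44710944 (minus strand, 58.8% G and C) and POU2AF1 from chr9:51213440-51213689 (plus strand, 56.0% G and C). No capitals are used, since none of the 7 motifs searched was found in these stretches.
PAX5: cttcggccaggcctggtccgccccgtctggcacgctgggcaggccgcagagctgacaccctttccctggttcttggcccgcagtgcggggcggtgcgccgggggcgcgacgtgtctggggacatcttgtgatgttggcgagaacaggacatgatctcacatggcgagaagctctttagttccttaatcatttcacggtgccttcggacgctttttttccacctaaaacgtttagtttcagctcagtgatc
POU2AF1: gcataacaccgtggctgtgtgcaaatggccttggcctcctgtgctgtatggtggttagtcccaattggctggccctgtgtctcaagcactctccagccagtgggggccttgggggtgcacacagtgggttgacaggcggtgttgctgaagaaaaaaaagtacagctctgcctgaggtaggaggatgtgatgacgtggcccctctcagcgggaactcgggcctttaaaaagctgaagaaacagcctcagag

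Promoters of 9 of the 10 members were in the RefSeq table (14 promoters, ETS1 not among them), and the 250 bases before each start were searched on both strands. The composite ETS-IRF letters are GGAA and GAAA parted by 2 bases, a site that SPIB or its relative SPI1 can share with IRF4 or IRF8. They were found for 3 of the 9 genes, BACH2, POU2F2 and BCL6, and in 2.3% of 32851 promoters of the same length. The 9 genes have 14 promoters, so that a count of genes and a share of promoters are unlike measures. BCL6 had a further promoter without a match. The IRF letters, GAAA and GAAA parted by 2 bases, were found before EBF1 and in 2.98% of all promoters. Both patterns differ at their second base, so that 1 stretch cannot match both in the same place and direction. No member held the EBF letters, TCCC and GGGA parted by 2 bases (0.779% of all promoters), the octamer ATGCAAAT (1.6%), the PU.1 letters GAGGAAGT (2.44%), the BCL6 letters TTCCTAGAA (0.347%) or the MARE letters GCTGAGTCA to which BACH2 binds with small MAF proteins (0.39%). A match is a description of letters only. The 3 composite matches are shown in capitals with 10 bases on each side, on the gene's strand, BACH2 from chr4:32417408-32417437 (plus), POU2F2 from chr7:25132561-25132590 (minus) and BCL6 from chr16:23981292-23981321 (minus). In BACH2 and POU2F2 the match reads on the opposite strand and its first printed base lies 17 and 120.0 bases before the start, and in BCL6 it reads on the same strand, 28 bases before.
BACH2: acgaacgggcTTTCCCTTCCggtctaggtg
POU2F2: gccagggtatTTTCCCTTCCgaagggggcg
BCL6: cagaataacaGGAAAAGAAAaaaaaaaaga

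**Figure D1:**
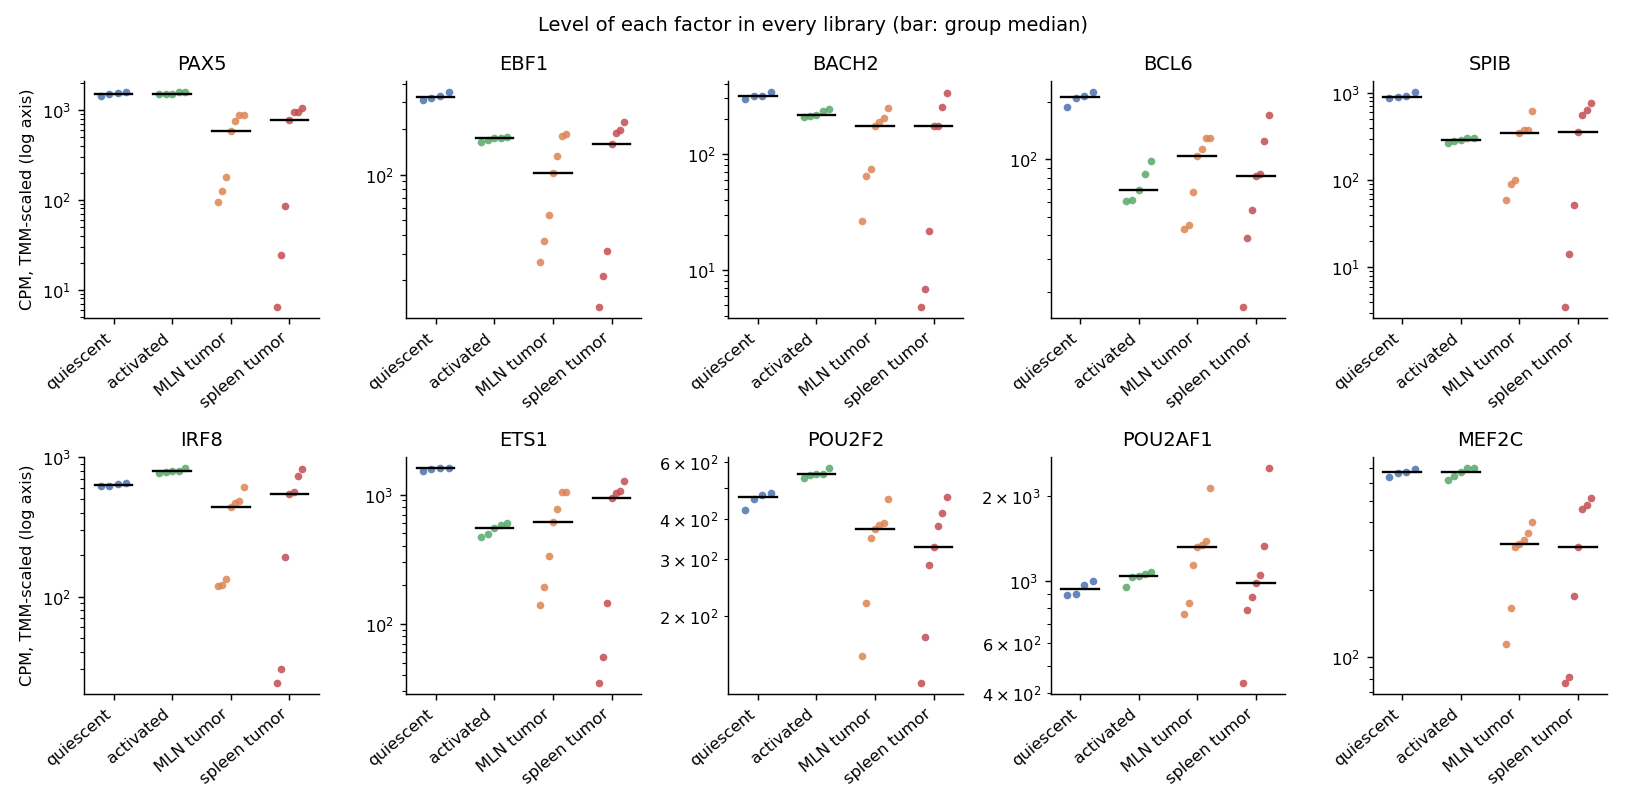
TMM-scaled CPM (log axis) of the 10 members in each library, by group, with a bar at the group median. The 14 tumor libraries lie below all quiescent libraries for PAX5, EBF1, BCL6, SPIB, ETS1 and MEF2C, and on both sides of them for POU2AF1.

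Tumors were compared with quiescent B cells over mice, with the counts of a mouse's tumors summed (8 mice against 4 libraries). By edgeR's quasi-likelihood test with Benjamini-Hochberg adjustment over 11348 genes, 8 of the 10 members were lower at an adjusted p below 0.05 and 0 were higher; among all genes tested 32.1% were lower and 36.3% higher. The members' median log2 change was -1.18, and that of all genes 0.06. Without any overlap between libraries, 6 members were lower in tumors, beside 16.2% of 11637 genes. The members' change is read on bulk RNA, in which fewer B cells and less RNA per B cell cannot be told apart.

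Among the factors that commit and hold the lineage, PAX5 had a log2 change of -1.43 with a standard error (SE) of 0.32 and an adjusted p of 0.00109 by edgeR. EBF1, which opens B cell genes ahead of PAX5, measured 314, 330.1, 353 and 319.9 CPM in quiescent cells. MLN tumors had a lowest, median and highest EBF1 value of 26.5, 103 and 187 CPM, and spleen tumors of 13.3, 160.4 and 222 CPM. No tumor library reached the quiescent ones, and EBF1 fell by 1.49 in log2 (SE 0.25, adjusted p = 0.00012 by edgeR). SPIB, an ETS factor close to SPI1 that acts in B cell receptor signaling, measured 884, 888, 931 and 1031 CPM in quiescent cells. In MLN tumors it ran from 58.8 to 626 CPM with a median of 351, and in spleen tumors from 3.49 to 765 CPM with a median of 358. SPIB was below quiescent cells in 14 of 14 tumor libraries, by 267-fold in the spleen tumor of mouse 1611, and fell by 1.46 (SE 0.35, adjusted p = 0.00163 by edgeR).

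The repressors that hold back plasma cell differentiation were lower as well. BACH2, which represses PRDM1 with small MAF partners, measured 316, 296, 312 and 341 CPM in quiescent cells. Its lowest, median and highest values were 26.3, 174 and 248 CPM in MLN tumors and 4.79, 172 and 334 CPM in spleen tumors. BACH2 was below the lowest quiescent library in 13 of 14 tumor libraries, the spleen tumor of mouse 1610 being the one inside their range, and it fell by 1.11 (SE 0.28, adjusted p = 0.00214 by edgeR). BCL6, the repressor that directs the germinal center program, measured 227, 209.5, 215 and 189 CPM in quiescent cells. It ran from 42.9 to 130.03 CPM in MLN tumors (median 105) and from 16.7 to 172 CPM in spleen tumors (median 82.1). All 14 tumor libraries were below the quiescent ones, and BCL6 fell by 1.24 (SE 0.22, adjusted p = 0.00017 by edgeR).

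MEF2C and ETS1 were also lower. MEF2C, a MADS-box factor of B cell survival after receptor signaling, measured 666, 690.1, 637 and 672 CPM in quiescent cells. Tumors had a lowest, median and highest value of 114, 319 and 404 CPM in the MLN and of 76.9, 309.8 and 516 CPM in the spleen. All 14 tumor libraries were below the quiescent ones, and MEF2C fell by 1.11 (SE 0.15, adjusted p = 1.4e-05 by edgeR). ETS1, an ETS factor that restrains B cells from becoming plasma cells, measured 1518, 1576, 1619 and 1609.9 CPM in quiescent cells. It ran from 140.4 to 1055 CPM in MLN tumors (median 616) and from 34.9 to 1282 CPM in spleen tumors (median 937). ETS1 too was below the quiescent libraries in all 14 tumors, and fell by 1.26 (SE 0.33, adjusted p = 0.00306 by edgeR).

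The octamer factor and its coactivator parted. POU2F2 (OCT2) measured 475, 483, 461 and 426 CPM in quiescent cells, with tumor values of 149, 372 and 461 CPM (lowest, median, highest) in the MLN and 123, 326 and 468 CPM in the spleen. It was below the lowest quiescent library in 12 of 14 tumors and fell by 0.48 (SE 0.14, adjusted p = 0.00617 by edgeR), the smallest of the 8 falls. POU2AF1 had a log2 change of 0.26 (SE 0.24, adjusted p = 0.337 by edgeR) and did not pass the test. IRF8, a partner of SPI1 and SPIB at composite sites, measured 626, 640.5, 659 and 626 CPM in quiescent cells, 119, 441 and 616 CPM (lowest, median, highest) in MLN tumors and 23.98, 549 and 826 CPM in spleen tumors. IRF8 was below the lowest quiescent library in 12 tumor libraries and above the highest in the other 2, with a log2 change of -0.66 (SE 0.30, adjusted p = 0.0653 by edgeR) that missed the threshold.

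These calls depended on how tumors were counted. With the 7 spleen tumors alone, or with 14 tumor libraries taken as independent, 3 members remained lower (EBF1, BCL6 and MEF2C), and PAX5, SPIB, BACH2, ETS1 and POU2F2 kept their direction but not the call. Over all genes 2558 of 11143 were lower with spleen tumors alone and 2969 of 11637 with independent libraries. The IRF8 change passed the threshold when mouse 1612 or mouse 1616 was left out, and the POU2F2 call was also lost under upper quartile or quantile scaling, under limma with the mouse as random block and with MLN tumors alone.

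**Figure D2:**
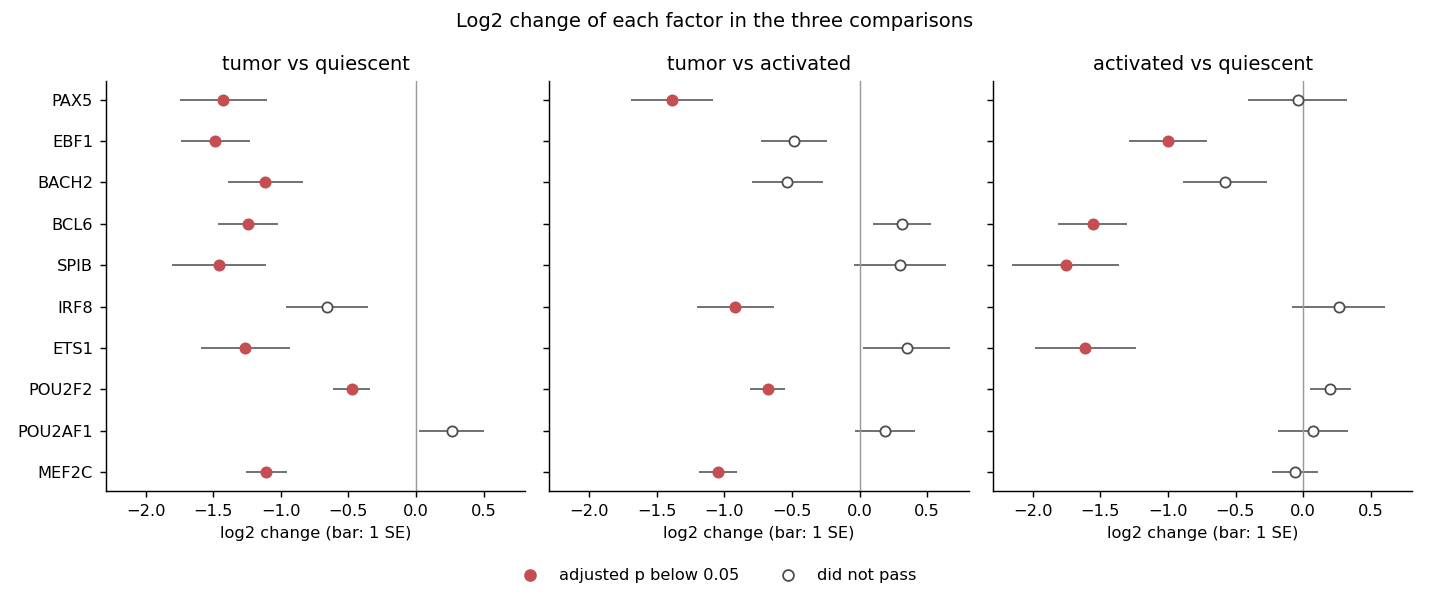
Log2 change of each member with 1 SE in the 3 comparisons of the shared edgeR fit, with filled symbols where the adjusted p is below 0.05. The 8 filled symbols for tumors against quiescent cells all lie below 0, and POU2AF1 has open symbols in each comparison.

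Lists of related genes, chosen with earlier results of these data known, give the setting. Of 8 plasma cell regulators 5 were higher and 0 lower in tumors than in quiescent cells (median log2 change 1.25). PRDM1 rose by 2.61 (SE 0.45, adjusted p = 0.00013 by edgeR), XBP1 by 2.68 (SE 0.58, adjusted p = 0.00077) and CREB3L2, an endoplasmic reticulum-bound factor of secretory cells, by 2.98 (SE 0.50, adjusted p = 9.5e-05). IRF4, which acts in both germinal center exit and plasma cells, had a change of 0.65 (SE 0.39, adjusted p = 0.149) and did not pass. Of 18 other B cell factors tested (20 listed, MYB and HHEX without values), 12 were lower and 2 higher (median -0.77). ID3, an inhibitor of E proteins, fell by 1.60 and IKZF3 (Aiolos) fell by 1.32, whereas ID2 rose by 2.56 and BHLHE41 rose by 2.47. SPI1, the near relative of SPIB, had a change of 0.08 (SE 0.20, adjusted p = 0.730).

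Relatives and partners of the members moved in the same direction more often than not: 13 of 17 tested were lower and 2 higher (median -0.48). POU2F1 (OCT1) fell by 1.26 and FLI1, an ETS factor, fell by 1.17. MEF2B, which shares its profile with the name BORCS8-MEF2B, rose by 4.10 (SE 0.35, adjusted p = 2.2e-07 by edgeR), opposite to MEF2C, and MAFG, a small MAF partner of BACH2, rose by 0.58. Of 14 B cell surface and signaling genes 13 were lower and 0 higher (median -1.32), with CR2 (complement receptor 2) at a log2 change of -2.69 and FCER2 (CD23) at -2.20. All 5 germinal center genes were higher over mice (median 2.80): S1PR2, a receptor that keeps cells in the follicle, rose by 4.01 (SE 0.38, adjusted p = 5.2e-07 by edgeR) and GCSAM rose by 3.76. Single tumor libraries ran from 0.803 to 226 CPM for GCSAM (quiescent 3.05 to 4.86) and from 0.100 to 108 CPM for RGS13 (quiescent 2.99 to 5.42). MYBL1 and FAS overlapped with quiescent cells too. S1PR2 did not, at 17.9 to 196 CPM in tumors and 2.86 to 5.72 CPM in quiescent cells. BCL6, which is high in germinal center B cells, was lower in the same mice.

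Marker sums of macrophages and neutrophils were higher in every tumor library than in any control library. Those of T cells and erythroid cells, each mostly 1 gene in the controls, overlapped with the control sums. Summed CPM of macrophage markers (8 of 10 with values) ran from 17.99 to 167 in quiescent, from 9.06 to 20.6 in activated and from 204 to 3370 in tumor libraries, and 8 of 8 tested passed as higher against quiescent cells. Neutrophil markers (6 of 7) summed to 1.58 to 3.98, 2.07 to 5.45 and 9.08 to 2096 CPM in the same order, with 6 of 6 higher, and ELANE at 0 in activated cells. T cell markers (12 of 12) summed to 83.8 to 88.7, 50.6 to 60.5 and 43.5 to 801 CPM, and 8 of 11 tested were higher. LCK alone was 71.1 to 75.4 CPM in quiescent and 47.8 to 55.98 CPM in activated libraries. Erythroid markers (6 of 7) summed to 101 to 120.3, 283 to 312 and 100.3 to 3574 CPM, with 6 of 6 higher. TFRC alone was 93.2 to 102.2 CPM in quiescent and 282.2 to 311.7 CPM in activated libraries. Sums without LCK or TFRC were not taken, so that these overlaps do not show where the other markers lay. In the spleen tumor of mouse 1611, with the lowest PAX5, the macrophage, neutrophil and erythroid sums were 2172, 2096 and 3574 CPM, and in the spleen tumor of mouse 1616, second lowest, they were 2119, 240.2 and 227 CPM. Much of the macrophage sum in these 2 libraries was C1QB alone, a complement gene singled out after its values were seen, at 1408 and 1996 CPM, and the other 7 markers summed to 764 and 124 CPM. Without C1QB the sums ran from 98.4 to 2985 CPM in tumors and from 17.1 to 151 CPM in quiescent libraries, so that the ranges overlapped. The macrophage sum was highest, 3370 CPM, in the spleen tumor of mouse 1613, whose PAX5 of 763 CPM was near the middle of the tumors. Of the remaining lists, 4 of 6 natural killer markers were higher and 1 lower, 4 of 5 plasmacytoid dendritic, 7 of 7 stromal, 2 of 3 endothelial and 1 of 1 adipocyte markers were higher, and 0 of these were lower. Dendritic cells also make IRF8: their markers (6 of 6, with 4 higher and 1 lower) summed to 172 to 187 CPM in quiescent, 72.9 to 92.9 CPM in activated and 15.6 to 813 CPM in tumor libraries. CCR7, which B cells also express, made up 153 to 158 CPM of the quiescent sum, and the other 5 markers summed to 16.1 to 33.7 CPM in quiescent, 14.8 to 19.2 CPM in activated and 10.1 to 795 CPM in tumor libraries. The part of these cells in the members' changes was not tested.

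LPS makes resting B cells grow and divide, and activated cells are the second control of the study. By edgeR's test over the same 11348 genes 4 members were lower and 0 higher, beside 27.3% and 35.4% of all genes, and the members' median log2 change was -0.51 against 0.08 for all genes. The libraries of 3 members, PAX5, POU2F2 and MEF2C, were lower without overlap, beside 12.3% of genes. The comparison uses the same tumors as the one with quiescent cells.

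PAX5 fell by 1.39 (SE 0.30, adjusted p = 0.00089 by edgeR), a value close to that against quiescent cells. MEF2C measured 619, 669, 703, 648 and 704 CPM in activated libraries, above all 14 tumors, and fell by 1.05 (SE 0.14, adjusted p = 1e-05). POU2F2 measured 538, 551, 549.6, 578 and 553 CPM in activated cells, above all 14 tumors, and fell by 0.68 (SE 0.13, adjusted p = 0.00025). IRF8 measured 799, 778, 773, 799 and 845 CPM in activated cells, above 13 of 14 tumors, and fell by 0.92 (SE 0.28, adjusted p = 0.0102). In activated cells these 4 members, and POU2AF1, lay near or above their quiescent level.

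The other 6 members did not pass against activated cells. EBF1 had a log2 change of -0.48 (SE 0.24, adjusted p = 0.0940 by edgeR) and BACH2 of -0.54 (SE 0.26, adjusted p = 0.0851). BCL6 (0.31, SE 0.22), SPIB (0.30, SE 0.34), ETS1 (0.35, SE 0.32) and POU2AF1 (0.19, SE 0.22) had values above 0 with adjusted p from 0.216 to 0.468. Tumors lay on both sides of the activated libraries for each: for SPIB 6 tumor libraries were below the lowest activated one and 8 above the highest. EBF1 passed without mouse 1612 or 1616 and under limma with either pseudocount, and BACH2 without mouse 1610 or 1616, whereas PAX5 and IRF8 lost their calls with spleen tumors alone, and IRF8 also with 14 independent libraries. The POU2AF1 value turned to -0.14 without mouse 1616.

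Among the lists, 5 of 8 plasma cell regulators were higher and 1 lower in tumors than in activated cells (median 1.14). CREB3L2 rose by 4.04, PRDM1 by 1.72 (SE 0.39, adjusted p = 0.00115 by edgeR), XBP1 by 1.24 (SE 0.49, adjusted p = 0.0352) and IRF4 by 1.03 (SE 0.36, adjusted p = 0.0218), and ATF4, a stress-response factor, fell by 1.16. Other B cell factors were split, 5 higher and 5 lower of 18 (median -0.10), with BHLHE41 up by 3.03, ID2 up by 2.85, SPI1 up by 0.90, BCL11A at -1.38 and FOXP1 at -1.01. Of 17 relatives and partners 6 were higher and 6 lower, among them MEF2B (0.78), BACH1 (0.69), FLI1 (-1.01) and MAFG (-0.72). Of 14 B cell surface and signaling genes 5 were higher and 4 lower, with CR2 at 1.90, FCRL1 at 1.83, FCER2 at -2.30 and CD40 at -1.74. Of 5 germinal center genes 4 were higher (median 5.44). GCSAM and RGS13 had fitted changes of 8.69 and 6.77 against activated levels of at most 0.240 and 0.413 CPM, so that the size of these 2 changes depends on very few counts.

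Part of the set was lower after LPS activation, as was a similar part of all genes. Whether the members differ from all genes in this was not tested. In the shared fit 4 of 10 members were lower in activated than in quiescent cells, beside 34.3% of all genes, and 0 were higher, beside 26.1%. By the libraries alone 5 members were lower without overlap (35.2% of genes) and 2 higher (32.1% of genes). The members' median log2 change was -0.32 and that of all genes -0.15.

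ETS1 measured 473, 497, 580.2, 552 and 601 CPM in activated cells, all below the lowest quiescent value, and fell by 1.61 (SE 0.37, adjusted p = 0.00147 by edgeR). SPIB measured 303, 278, 268, 292 and 302 CPM and fell by 1.76 (SE 0.40, adjusted p = 0.0012). BCL6 measured 60.6, 61.2, 83.9, 69.1 and 98.4 CPM and fell by 1.56 (SE 0.25, adjusted p = 6.2e-05). These 3 had the largest activation changes of the set. EBF1 measured 169, 163, 173, 174 and 178 CPM and fell by 1.00 (SE 0.29, adjusted p = 0.00664).

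BACH2 measured 211, 232, 214, 243 and 206 CPM in activated cells, below every quiescent library. Its change of -0.58 (SE 0.31, adjusted p = 0.118 by edgeR) did not pass in the fit that shares its spread with the tumors. PAX5 (-0.04, SE 0.37), MEF2C (-0.06, SE 0.17), POU2AF1 (0.07, SE 0.26), POU2F2 (0.20, SE 0.15) and IRF8 (0.26, SE 0.34) did not pass either, with adjusted p from 0.270 to 0.931. IRF8 and POU2F2 were the 2 members whose activated libraries all lay above the quiescent ones. In a fit of the 9 control libraries alone, chosen after seeing the data, 3 members were higher (IRF8 by 0.33, POU2F2 by 0.27 and POU2AF1 by 0.14) beside 40.2% of 10033 genes, and 5 lower, BACH2 joining at -0.51, beside 40.5%. PAX5 changed sign between fits, with 0.03 there. In shared fits with spleen tumors alone or 14 independent libraries BCL6 alone kept its call, and EBF1 lost its call with MLN tumors alone too.

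Between quiescent and activated cells the lists moved as follows. Of 8 plasma cell regulators 2 were higher, ATF4 by 1.51 and XBP1 by 1.44, and 0 lower, PRDM1 having 0.89 (SE 0.45, adjusted p = 0.0935 by edgeR) and IRF4 -0.38 (adjusted p = 0.439). Of 18 other factors 8 were lower and 0 higher, KLF3 by -1.85, ID3 by -1.54 and SPI1 by -0.81. Of 17 relatives and partners 11 were lower and 4 higher, with MEF2B at 3.31, MAFG at 1.29, IRF2 at -1.18 and MEF2D at -1.15. Of 14 B cell surface and signaling genes 9 were lower and 0 higher, with CR2 at -4.59 and FCRL1 at -3.08. Of 5 germinal center genes 3 were lower and 0 higher, with GCSAM at -4.93 and RGS13 at -4.25.

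The tumors differed more from one another than the control libraries did. The SD of log2 CPM over the 14 tumor libraries was 2.27 for PAX5, 2.24 for SPIB, 1.92 for BACH2, 1.73 for ETS1, 1.65 for IRF8 and 1.39 for EBF1. It was 0.93 for MEF2C, 0.90 for BCL6, 0.64 for POU2AF1 and 0.62 for POU2F2. The median over all genes was 0.45 in tumors, 0.11 in quiescent and 0.10 in activated libraries. For PAX5 the SD among quiescent libraries was 0.06 and among activated ones 0.04.

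In order of rising PAX5 the tumor libraries began with the spleen tumors of mice 1611 (6.39 CPM), 1616 (24.1 CPM) and 1614 (86.2 CPM). They went on with the MLN tumors of mice 1615 (93.3 CPM), 1610 (125 CPM) and 1616 (179.7 CPM). After a step of 3.23-fold came the MLN tumors of mice 1609 (581 CPM) and 1614 (742 CPM), the spleen tumor of mouse 1613 (763 CPM) and the MLN tumors of mice 1613 (871 CPM) and 1611 (886 CPM). The order ended with the spleen tumors of mice 1615 (939 CPM), 1612 (942 CPM) and 1610 (1049.9 CPM). Neighbours above the step differed by at most 1.28-fold, so that their order carries little. Spleen tumors held the 3 lowest and the 3 highest places, and MLN tumors lay between them.

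Other members followed this order to different degrees. The spleen tumor of mouse 1611 was the lowest library for 8 members: against the quiescent mean SPIB was 267-fold lower there, PAX5 236-fold, BACH2 66.0-fold, ETS1 45.3-fold, EBF1 24.8-fold, BCL6 12.6-fold, MEF2C 8.67-fold and POU2F2 3.73-fold. IRF8 was lowest in the spleen tumor of mouse 1616, 26.6-fold below the quiescent mean. That same library had the highest POU2AF1 of all, 2519.8 CPM, beside a PAX5 of 24.1 CPM, and the MLN tumor of mouse 1616 had the next, 2135 CPM.

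Over the 14 tumor libraries, which share mice and differ in the other cells they hold, Pearson's r of log2(CPM + 1) was 0.99 between PAX5 and SPIB, 0.98 between PAX5 and ETS1, 0.98 between PAX5 and BACH2 and 0.96 between PAX5 and IRF8. It was 0.95 with EBF1, 0.86 with MEF2C, 0.84 with BCL6 and 0.80 with POU2F2. POU2AF1 had r of -0.20 with PAX5 and between -0.41 and 0.19 with the other members. These values describe the libraries and are not tests.

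**Figure D3:**
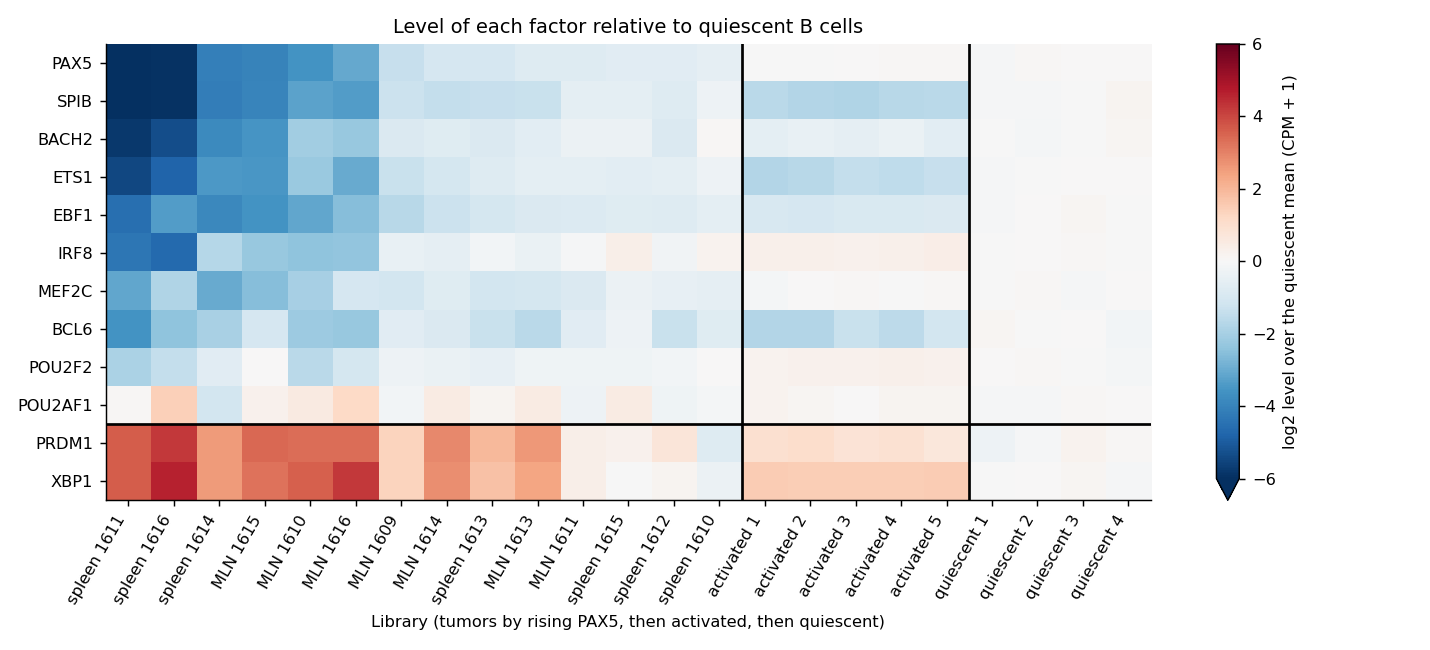
Log2 of each library's CPM over the quiescent mean for the 10 members, PRDM1 and XBP1 (rows), with tumor libraries ordered by rising PAX5, then activated and quiescent libraries (columns). PAX5, SPIB, BACH2 and ETS1 are lowest at the left, where the spleen tumor of mouse 1611 has a PAX5 of 6.39 CPM and a PRDM1 of 131 CPM.

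PRDM1 was high where PAX5 was low, at the ends of the order. PRDM1 measured 131 CPM in the spleen tumor of mouse 1611 and 203 CPM in that of mouse 1616, the 2 libraries with the least PAX5, and 5.36 CPM in the spleen tumor of mouse 1610, with the most. XBP1 in these 3 libraries was 2248, 4432 and 139.8 CPM. In between the order was not strict: the MLN tumor of mouse 1614 had 78.7 CPM of PRDM1 with 742 CPM of PAX5, and the spleen tumor of mouse 1614 had 62.4 CPM of PRDM1 with 86.2 CPM of PAX5.

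The log2 ratio of PAX5 to PRDM1 was taken within a control library or within the summed tumors of a mouse. Scaling between these units cancels in it apart from the pseudocount of 1, but the weight of each summed tumor depends on its depth. The ratio was 3.28 ± 1.80 (SD, n = 8) in tumor mice. Quiescent libraries had a ratio of 7.16 ± 0.20 (SD, n = 4). For activated libraries it was 6.28 ± 0.17 (SD, n = 5). The difference from quiescent cells was -3.88 (two-sided exact permutation test, p = 0.00202, the smallest this design can give). The difference from activated cells was -3.00 (two-sided exact permutation test, p = 0.003885, where the smallest possible is 0.000777). With spleen tumors alone these differences were -4.75 and -3.88 with exact permutation p of 0.0576 and 0.0934. In a summed mouse PAX5 and PRDM1 can come mostly from different tumors. Mouse 1610 had 674 CPM of PAX5 and 45.1 CPM of PRDM1 when summed, with ratios of 0.23 in its MLN and 7.37 in its spleen tumor. The ratios in mouse 1611 were 6.02 (MLN) and -4.16 (spleen). Single tumor libraries overlapped with the controls. The spleen tumor of mouse 1610 had a ratio of 7.37, above the quiescent libraries at 6.92 to 7.35. That of mouse 1615 had 6.18, within the activated range of 6.07 to 6.52.

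Across the 8 tumor mice, PAX5 and PRDM1 had a Pearson r of -0.85 (exact permutation p = 0.00771, 0.0219 adjusted over 20 relations) and a Spearman rho of -0.90 (exact permutation p = 0.00456, adjusted 0.0228). For PAX5 and XBP1 r was -0.88 (exact permutation p = 0.00501, adjusted 0.0219) and rho -0.88 (exact permutation p = 0.00724, adjusted 0.0290). Without mice 1612 and 1616, the 2 farthest from the median, r was -0.42 and -0.45 and rho -0.77 and -0.71, so that the Pearson values rest on those mice. POU2AF1 had r of 0.75 with PRDM1 (exact permutation p = 0.0477, adjusted 0.0621) and rho of 0.50 (exact permutation p = 0.216, adjusted 0.228). Without the same 2 mice these were 0.11 and -0.20. The relation was not particular to PAX5: rho was -0.90 for SPIB with PRDM1, -0.93 for IRF8 with XBP1 and -0.90 for POU2F2 with XBP1 (exact permutation, adjusted p = 0.0228 each). BCL6 had the weakest negative rho, -0.57 with PRDM1 and -0.52 with XBP1.

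**Figure D4:**
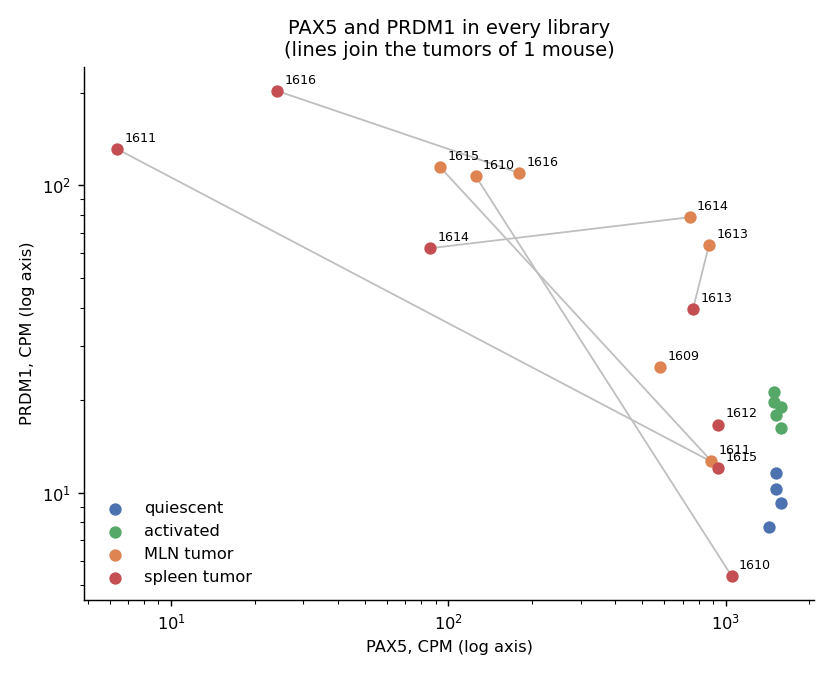
PRDM1 against PAX5 (CPM, log axes) in each of the 23 libraries, with a line joining the MLN and spleen tumors of 1 mouse. Control libraries sit together at a PAX5 of 1429 to 1586 CPM, and the line of mouse 1611 runs from 6.39 CPM of PAX5 in the spleen to 886 CPM in the MLN.

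No member passed the test between MLN and spleen tumors as groups. By edgeR's test on 14 libraries with Benjamini-Hochberg adjustment over 11511 genes, 0 members were higher or lower, beside 0.0% of genes in each direction. At an unadjusted p below 0.05 there were 0 members and 486 genes, and DESeq2 called 13 genes higher and 4 lower in MLN tumors. The members' log2 changes lay between -0.27 (IRF8) and 0.16 (BCL6), with an adjusted p of 0.99995 by edgeR for each. No member had groups without overlap, beside 0.00859% and 0.0172% of genes. With the mouse as a block 6 of these values turned sign and none passed the test, PAX5 being at 1.12, SPIB at 0.92 and ETS1 at 0.73 in place of -0.12, -0.26 and -0.12.

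Within a mouse the 2 tumors could be far apart, in either direction. In mouse 1611 PAX5 was 886 CPM in the MLN and 6.39 CPM in the spleen, 138.6-fold apart. In mouse 1610 it was 125 and 1049.9 CPM, 8.37-fold apart the other way, and in mouse 1615 it was 93.3 and 939 CPM, 10.1-fold apart. MLN was higher again in mouse 1614 (742 and 86.2 CPM) and mouse 1616 (179.7 and 24.1 CPM), and mouse 1613 had 871 and 763 CPM, 1.14-fold apart. PAX5 thus differed by over 4-fold within 5 of 6 mice, with the MLN higher in 4 and the spleen in 2.

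The same 5 mice were over 4-fold apart for BACH2 and SPIB, whose largest differences were 51.8-fold and 179-fold, both in mouse 1611. EBF1 and IRF8 were over 4-fold apart in 4 mice, ETS1 and MEF2C in 3 and BCL6 in 1. POU2F2 and POU2AF1 were never over 4-fold apart, with largest differences of 3.16-fold in mouse 1611 and 3.09-fold in mouse 1614. PRDM1 and XBP1 were over 4-fold apart in 3 mice each. In mouse 1610 they were higher in the MLN, where PAX5 was lower, and in mouse 1611 higher in the spleen, where PAX5 was lower. Mice 1615 and 1616 also had more of both in the tumor with less PAX5. In mice 1613 and 1614 both were higher in the MLN, where PAX5 was higher too.

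**Figure D5:**
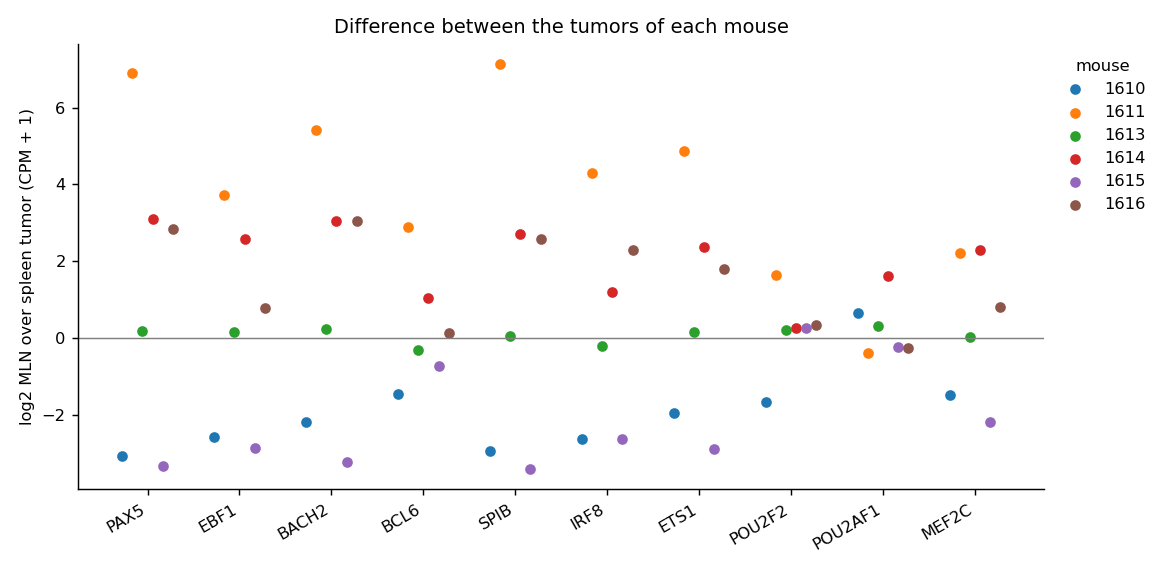
Log2 of MLN over spleen CPM of each member in the 6 mice with both tumors, with values above 0 where the MLN tumor is higher. Mouse 1611 has 6.91 for PAX5 and 7.12 for SPIB, mouse 1613 stays near 0, and POU2AF1 and POU2F2 have the smallest extremes.

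The genes most alike each member over the 14 tumor libraries were taken as the 3 with the highest Pearson r among all genes tested. For PAX5 they were both profiles named HLA-DMB (r 0.9998 and 0.998), a chaperone of MHC class II loading, and CIITA (0.997), the class II transactivator. PAX5 and the second HLA-DMB profile kept a ratio of 0.90 to 1.13 between their counts in tumors, 1.15 to 1.23 in quiescent and 1.42 to 1.54 in activated libraries. Among those of SPIB were MS4A1 (CD20, 0.997) and a profile shared by GRAP and GRAPL (0.995). For EBF1 they were CD79B (0.990), PXK (0.987) and FCRL1 (0.986), and for IRF8 HLA-DMA (0.990), IFI30 (0.990) and DUSP2 (0.988). B cell surface or antigen presentation genes are thus among the nearest of these 4 members.

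BACH2 was most like ABLIM1, CARMIL2 and ID3 (each 0.991), and ETS1 most like BCL9L, AFF3 and CARMIL2 (each 0.993). MEF2C was most like RALGPS2 (0.975), TEC (0.974) and HVCN1 (0.969). The values were lower for POU2F2, with BAZ2B (0.966), NCOA1 (0.959) and BMT2 (0.950), and for BCL6, with RUFY3 (0.954), CBFB (0.949) and TFEB (0.948). POU2AF1 had genes of another kind, TERT (0.951), MANEA (0.948) and SLC30A6 (0.932). None of the 10 members was among the 3 nearest of another.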

How the data were processed

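RNA was extracted with an RNeasy kit and made into stranded total RNA libraries, per the labels' protocols. Trim Galore 0.4.0, DESeq2 and the build GRCm39 are named in the submitters' processing notes, and the sources used here name neither the quantifier nor the step that gave human symbols. The deposited table is named for TPM, but the authors' columns sum to a different total in each library, and 0.285% of values above 0 are whole within 0.001. The deposited values were therefore treated as estimated counts, and whether they were scaled before deposit is not known here. Identical profiles were merged (61651 entries, 15881 distinct profiles above 0). Counts were rounded, scaled by TMM and tested with edgeR 4.0.16 (R 4.3.3), quasi-likelihood with robust spread and Benjamini-Hochberg adjustment, on genes at 1 CPM or more in at least 4 samples. Tumors of a mouse were summed, and 8 mice, 5 activated and 4 quiescent libraries entered 1 fit. The 14 tumor libraries entered a second fit for MLN against spleen. The equal numbers mark 1 animal in the design text, and the 2 tumors' deviations from their group means correlated at -0.21 (1610), -0.36 (1611), 0.4 (1613), -0.29 (1614), -0.49 (1615) and 0.72 (1616). CPM values are over all 23 libraries, correlations and ratios on log2(CPM + 1). The fits were tested on simulated data with 1 spread per gene for all groups. That setting does not cover the larger spread of the tumors seen here.

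The members and lists were chosen with earlier results of these data known. All members are named in each comparison, with the 2 largest rises and 2 largest falls past the threshold of each list, the genes PRDM1, XBP1, IRF4 and SPI1, and the 3 genes most alike each member; some genes of these lists are not reported here. Alternatives were other scalings, filters, a 2-fold threshold, pseudocounts, DESeq2 1.42.0, limma 3.58.1, single tissues, independent or blocked libraries, and each sample left out. The fit of control libraries alone was chosen after seeing the data.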

Additional observations from a re-analysis of the deposited data

Results flagged for a closer look

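IRF4, a factor of plasma cells named beside the members, had 1 quiescent library apart from the others: replicate 4 was at 214 CPM, and the other 3 lay between 252.6 and 255.9 CPM. The gap was 0.929 of the range of the 4 libraries, above the 0.829 used as the limit. Of 55 groups of values looked at, this was the 1 past its limit. Chance puts about 1 in 20 groups past it, so that 1 of 55 is no more than chance gives.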

How the results depend on the processing

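The members' counts of calls held within 1.5 times of the reported ones except as follows. Against quiescent cells, 3 members were lower with spleen tumors alone (2558 of all 11143 genes) and 3 with 14 libraries as independent (2969 of 11637 genes), in place of 8. Against activated cells, 2 were lower with spleen tumors alone (1821 of 11143 genes) and 2 at a 2-fold threshold, in place of 4. The count over all genes at that threshold is not given here. For activated against quiescent cells, 1 was lower with spleen tumors alone in the fit, 1 with 14 libraries as independent and 1 under limma with a random block for the mouse, in place of 4. Over all genes 3183 of 11143, 2565 of 11637 and 2128 of 11637 were lower in these settings. With the control libraries alone 3 members were higher in place of 0, beside 4029 of 10033 genes. With spleen tumors alone the PAX5 to PRDM1 differences were -4.75 (exact permutation p = 0.0576) and -3.88 (exact permutation p = 0.0934). Leaving out 1 sample or mouse at a time gave 8 to 9 members lower than quiescent, 4 to 6 lower than activated, 0 to 2 higher and 4 to 5 lower with LPS, 0 between MLN and spleen tumors, and differences of -4.23 to -3.35 and -3.35 to -2.47.

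The library numbers of activated and quiescent cells share only a number: their deviations correlated at -0.02 to 0. With that number as a replicate block 3 members were higher and 5 lower, beside 4002 and 3870 of 9985 genes. With the mouse as a block 0 members differed between MLN and spleen tumors in either direction, as without the pairing, while these log2 changes turned: EBF1 0.35, ETS1 0.73, IRF8 0.37, MEF2C 0.31, PAX5 1.12 and SPIB 0.92. They also turned under limma (EBF1 0.12, ETS1 0.51, IRF8 0.29, MEF2C 0.15, PAX5 0.84 and SPIB 0.79). Without single mice the ranges were -0.38 to 0.55 for BACH2, -0.13 to 0.42 for BCL6, -0.61 to 0.18 for EBF1, -0.52 to 0.25 for ETS1, -0.18 to 0.63 for IRF4, -0.68 to 0.12 for IRF8, -0.34 to 0.26 for MEF2C, -0.53 to 0.31 for PAX5, -0.0045 to 0.31 for POU2AF1, -0.072 to 0.36 for POU2F2, -0.21 to 0.59 for PRDM1, -0.33 to 0.24 for SPI1, -0.80 to 0.24 for SPIB and -0.15 to 0.61 for XBP1.

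In the other comparisons turns of sign were among values that did not pass. SPI1 against quiescent cells was -0.082 under limma with the random block and -0.032 to 0.15 without single samples. Against activated cells, limma with the random block gave ETS1 -0.47 and SPIB -0.88, MLN tumors alone gave SPIB -0.019, and POU2AF1 was -0.14 to 0.25 without single samples. For LPS, PAX5 was 0.011 (RLE and DESeq2), 0.015 (upper quartile), 0.016 (no filter), 0.023 (MLN alone and random block), 0.022 (independent libraries), 0.036 (number block) and 0.029 (control libraries alone). MEF2C was 0.0051 (MLN alone), 0.010 (number block), 0.012 (control libraries alone), 0.0043 (independent libraries) and 0.0032 (random block). Without single samples they ran from -0.071 to 0.058 and from -0.089 to 0.040. Scaling moved the median of all genes from 0.06 to 0.20 (upper quartile) and -0.11 (quantile) against quiescent cells, and the share of higher among all calls from 53.1% to 63.3% and 39.8%; against activated cells that share went from 56.5% to 64.0% and 38.0%. Over the other named genes and all settings, calls were lost in 5 cases against quiescent cells, 29 against activated cells and 22 for LPS. The causes of these moves were not tested.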
